A study of Rattus norvegicus with 3 samples.

Results

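The matrix metalloproteinase genes (Mmp), the Adamts protease genes, the Adamts-like genes (Adamtsl) and the genes of the tissue inhibitors of metalloproteinases (Timp) were followed in rat kidney after ethylene glycol. Members were taken by symbol, as every gene whose name begins with Mmp, Timp, Adamts or Adamtsl followed by a digit, and 48 of the 20667 genes on the array qualified. They comprised 22 Mmp, 18 Adamts, 4 Adamtsl and 4 Timp genes. The data are 3 Clariom S arrays, which report 1 signal per transcribed locus, each run on RNA from the kidney of a separate male rat. A control rat was compared with 1 rat taken on day 2 and another taken on day 5 of ethylene glycol (EG), an oral dose of 8 g/kg. The treated arrays are called day 2 and day 5. EG is a solvent that the body oxidises to oxalate, which forms calcium crystals in the kidney tubule. Strain and age were not given in the sources used here, and the labels do not settle whether the dose was given once or daily. Whole kidney was sampled, so a higher or lower signal from a changed number of cells of a type and from changed RNA per cell cannot be told apart.

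Mmp enzymes are zinc proteases that cut collagens, proteoglycans and many surface and signalling proteins outside the cell. Most are made as inactive precursors. Adamts enzymes are secreted relatives that cut proteoglycans such as versican, trim the ends of procollagens or process other matrix proteins, and the Adamtsl proteins resemble them but lack the protease domain. The Timp proteins bind the active site of these enzymes and block it, and in kidney the balance of proteases and inhibitors is known to bear on matrix turnover and scarring.

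Signals are the deposited log2 values. A background level of 5.34 log2 was set so that 95% of the signals of 1059 olfactory receptor genes, which kidney is assumed not to express, lay under it. Values under it were raised to it, so where only 1 array of a comparison reached the level the difference is a minimum, given as "at least". Every group was 1 array from 1 rat. No difference could therefore be set against a spread between animals, and no test was run. Genes at least 2-fold apart, 1 log2 unit or more, are counted as a description of these arrays. Of the 48 members, 23 reached the level on all 3 arrays, 5 on some arrays only and 20 on none. The share with signal on at least 1 array was 58.3% of the members and 65.5% of all genes. The 7 kidney markers checked, among them Umod of the thick ascending limb and Lrp2 of the proximal tubule, reached the level on every array. Array medians lay between 6.21 and 6.30 log2. The largest value in the table, 19.93, exceeds the range of a 16-bit scanner, so differences of very bright genes may be stretched or compressed.

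Several of the inhibitor and protease genes that carry the results are shown first by their upstream sequence. RefSeq promoter windows (assembly GRCr8, from 250 bases before to 50 bases after a gene's start) matched 37 of the 48 members by symbol. The 250 bases before the start are printed 5′ to 3′ on the gene's own strand for 3 inhibitor genes and 2 Adamts genes. Capitals mark matches, on either strand, to 5 motifs: the AP-1 motif TGANTCA, the cyclic AMP response element TGACGTCA, the STAT motif TTCNNNGAA, the GC box GGGCGG and the TATA box TATAAA.
Timp1 (GRCr8 chrX:3771123-3771372, minus strand): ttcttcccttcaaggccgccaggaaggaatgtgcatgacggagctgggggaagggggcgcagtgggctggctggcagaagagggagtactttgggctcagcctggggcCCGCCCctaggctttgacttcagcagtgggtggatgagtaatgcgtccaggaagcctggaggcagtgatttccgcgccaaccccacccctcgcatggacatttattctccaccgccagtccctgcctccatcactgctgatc
Timp2 (GRCr8 chr10:104089215-104089464, minus strand): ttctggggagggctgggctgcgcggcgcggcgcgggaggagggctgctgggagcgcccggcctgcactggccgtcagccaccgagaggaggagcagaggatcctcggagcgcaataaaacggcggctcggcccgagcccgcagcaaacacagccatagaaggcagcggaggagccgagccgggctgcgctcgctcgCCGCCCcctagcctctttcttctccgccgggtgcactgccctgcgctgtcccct
Timp3 (GRCr8 chr7:19459559-19459808, minus strand): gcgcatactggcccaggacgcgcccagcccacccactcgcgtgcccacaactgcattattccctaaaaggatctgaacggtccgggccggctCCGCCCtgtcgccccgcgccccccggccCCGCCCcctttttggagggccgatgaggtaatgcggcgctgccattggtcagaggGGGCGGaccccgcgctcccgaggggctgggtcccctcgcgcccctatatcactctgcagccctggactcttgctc
Adamts1 (GRCr8 chr11:38427385-38427634, minus strand): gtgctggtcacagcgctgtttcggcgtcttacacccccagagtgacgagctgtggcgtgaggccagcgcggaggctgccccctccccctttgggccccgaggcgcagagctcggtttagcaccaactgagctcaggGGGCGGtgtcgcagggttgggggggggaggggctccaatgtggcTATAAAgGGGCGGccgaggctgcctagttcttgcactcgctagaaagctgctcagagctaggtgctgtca
Adamts4 (GRCr8 chr13:86202761-86203010, plus strand): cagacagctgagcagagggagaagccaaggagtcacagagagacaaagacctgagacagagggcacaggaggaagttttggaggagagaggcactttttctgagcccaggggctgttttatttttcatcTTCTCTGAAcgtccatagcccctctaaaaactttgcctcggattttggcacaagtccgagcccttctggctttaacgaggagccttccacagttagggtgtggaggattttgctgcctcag
The Timp1 and Timp2 stretches each held 1 GC box, and that of Timp3 held 3. Adamts1 had 2 GC boxes and a TATA box. In Adamts4 the match was 1 STAT motif beginning 121 bases before the start. Over the 300-base windows, a GC box was found in 18 of the 37 matched members (48.6%) and in 36% of 27457 gene symbols. The STAT motif was found in 5 members (13.5%) and in 9.39% of symbols, the TATA box in 13 (35.1%) and 15.3%, and the cyclic AMP response element in 0 and 2%. A match describes letters only and is not shown to be a binding site.

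On the day 2 array, Adamts1 and Adamts4, which are 2 of the 7 proteoglycan-cutting Adamts genes, and the inhibitor gene Timp1 were higher than in the control, and the inhibitor gene Timp3 was lower. Of the 48 members 4 were at least 2-fold higher (8.33%), where 2.92% of all genes were, and 1 was lower (2.08%), where 1.61% of all genes were. With quantile normalization the shares of all genes were 2.25% higher and 1.93% lower. Adamts1, which cuts versican and aggrecan, had signals of 9.82 log2 in the control, 12.66 on day 2 and 12.09 on day 5. Both treated arrays lay above the control, by 2.84 log2 (7.16-fold) on day 2 and 2.27 (4.82-fold) on day 5. The day 2 difference ranked 15 from the top of 20667 genes. Adamts4, another enzyme that cuts aggrecan and versican, stood at 6.21, 7.67 and 6.53 log2 in the same order. Its day 2 array alone was high, 2.75-fold above the control and 2.20-fold above day 5.

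Timp1, the inhibitor most often described as induced in injured tissue, gave 5.67 log2 in the control, 8.28 on day 2 and 6.98 on day 5. The control value lay just over the background level, day 2 was the highest of the arrays and day 5 lay between them. The differences from control were 2.61 (6.11-fold, rank 19 from the top) and 1.31 (2.48-fold), and day 5 was lower than day 2 by 1.30. With the background set at the median of all values, the day 2 difference was 1.88 and the day 5 difference 0.58, under 2-fold. Mmp19, a protease that was first described in inflamed joint tissue, had 4.88 log2 in the control, under the level, 6.52 on day 2 and 6.16 on day 5. It was at least 2.27-fold higher on day 2 and at least 1.77-fold higher on day 5. The higher background left 0.12 of its day 2 difference.

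Timp3, an inhibitor that stays bound to the matrix and also blocks Adamts enzymes, had the signals 16.47 log2 in the control, 15.19 on day 2 and 15.46 on day 5. Both treated arrays were lower, by 2.43-fold on day 2 and 2.01-fold on day 5. The control signal exceeds 16 log2, where the scale may be distorted, and the day 5 difference of -1.01 sat at the 2-fold line. Quantile normalization gave -0.76 and cyclic loess gave -0.77, under it. Timp4 was at 7.78, 7.06 and 7.28 log2, lower than the control on both treated arrays by less than 2-fold (-0.72 and -0.50). Within the inhibitor family, Timp1 and Timp3 thus differed from control in opposite directions on each treated array.

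**Figure D1:**
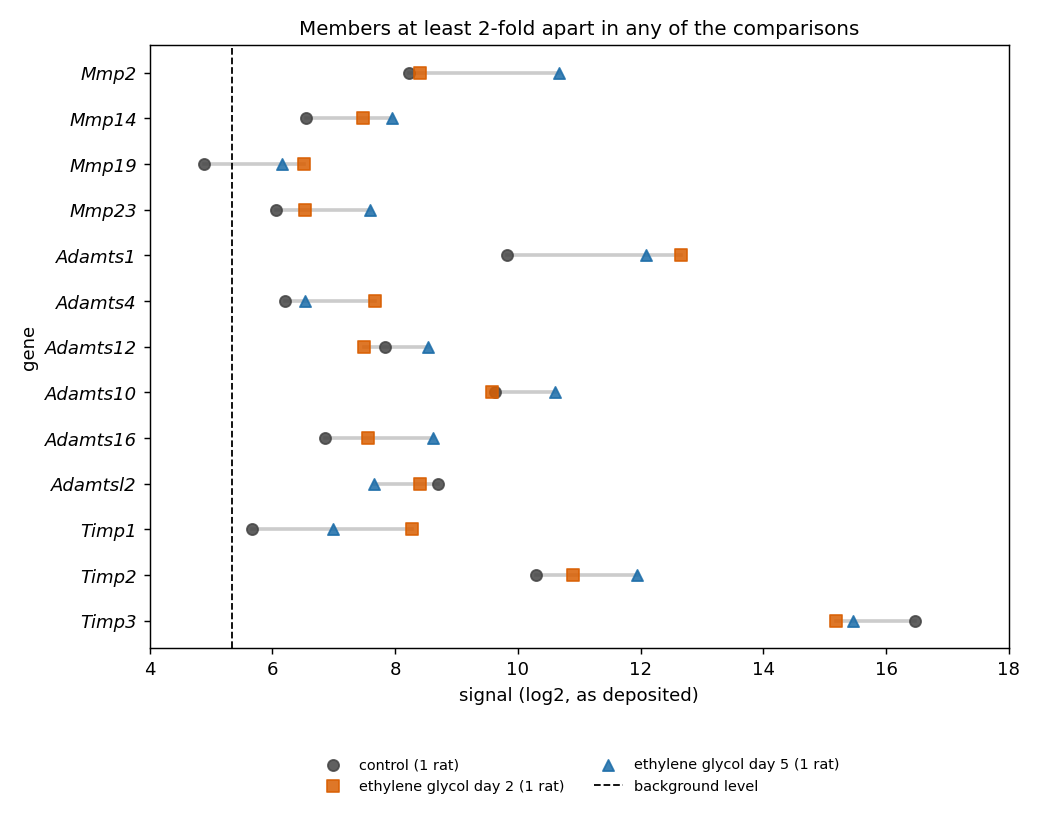
Signal (log2, as deposited) of the 13 members at least 2-fold apart in any comparison. Each point is 1 array from 1 rat, grey bars join the lowest and highest array, and the dashed line is the background level of 5.34. Adamts1, Adamts4, Mmp19 and Timp1 were highest on day 2, Mmp2, Mmp14, Mmp23, Adamts16 and Timp2 on day 5, and Timp3 in the control.

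On the day 5 array the gelatinase gene Mmp2 and its known partners Mmp14 and Timp2 were higher than in the control, as were Mmp23, Adamts16, Adamts1 and Timp1. In all, 7 of the 48 members were at least 2-fold higher than in the control (14.6%), where 3.11% of all genes were, and 2 were lower (4.17%), where 2.38% of all genes were. With each array centred on its median the shares of all genes were 2.39% higher and 3.14% lower, and the members still numbered 7 and 2. Mmp2 (gelatinase A), which cuts denatured collagen and basement membrane collagen, stood at 8.22 log2 in the control, 8.40 on day 2 and 10.67 on day 5. The first pair of arrays differed by 0.18, while day 5 was 5.46-fold above the control and 4.82-fold above day 2. These differences ranked 13 and 7 from the top of all genes.

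Mmp14, a membrane-anchored protease that activates the Mmp2 precursor, had 6.55 log2 in the control, 7.48 on day 2 and 7.95 on day 5. Its signal was higher on both treated arrays, by 0.93 (1.91-fold) and 1.40 (2.64-fold). Timp2, which takes part in that activation as an adaptor and also inhibits the active enzyme, had 10.30, 10.89 and 11.94 log2. It was 1.51-fold above the control on day 2 and 3.12-fold above it on day 5, and the treated arrays were 2.07-fold apart. All 3 genes of this activation complex, which was not a group set in advance, were thus highest on the day 5 array. Of the other Mmp genes classed as membrane-bound, Mmp15 (-0.92 and -0.26) and Mmp17 (-0.36 and -0.25) were not higher than in the control. Mmp16 and Mmp24 were under the level on all arrays. Mmp9, the other gelatinase and a product of neutrophils and macrophages, gave 5.88, 5.71 and 5.88 log2. Its arrays were within 0.17 of each other and close to the background level.

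Mmp23, a membrane-inserted protease of unusual domain structure, stood at 6.05 log2 in the control, 6.53 on day 2 and 7.59 on day 5. Adamts16, a gene studied in rats in connection with blood pressure, gave 6.86, 7.55 and 8.62 log2. In both genes day 5 was the highest array, by 2.91-fold and 3.39-fold over the control and by 2.08-fold and 2.10-fold over day 2. Adamts10, which interacts with fibrillin microfibrils, had 9.62, 9.57 and 10.61 log2, and its day 5 difference from control of 0.99 lay just under the 2-fold line. Adamts12, an enzyme that cuts cartilage oligomeric matrix protein, had 7.83, 7.49 and 8.53 log2. In both genes day 5 was 2.06-fold above day 2. Adamtsl2, a fibrillin-binding protein, was the member lower on day 5 besides Timp3, with 8.70, 8.41 and 7.66 log2 (2.06-fold below the control).

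**Figure D2:**
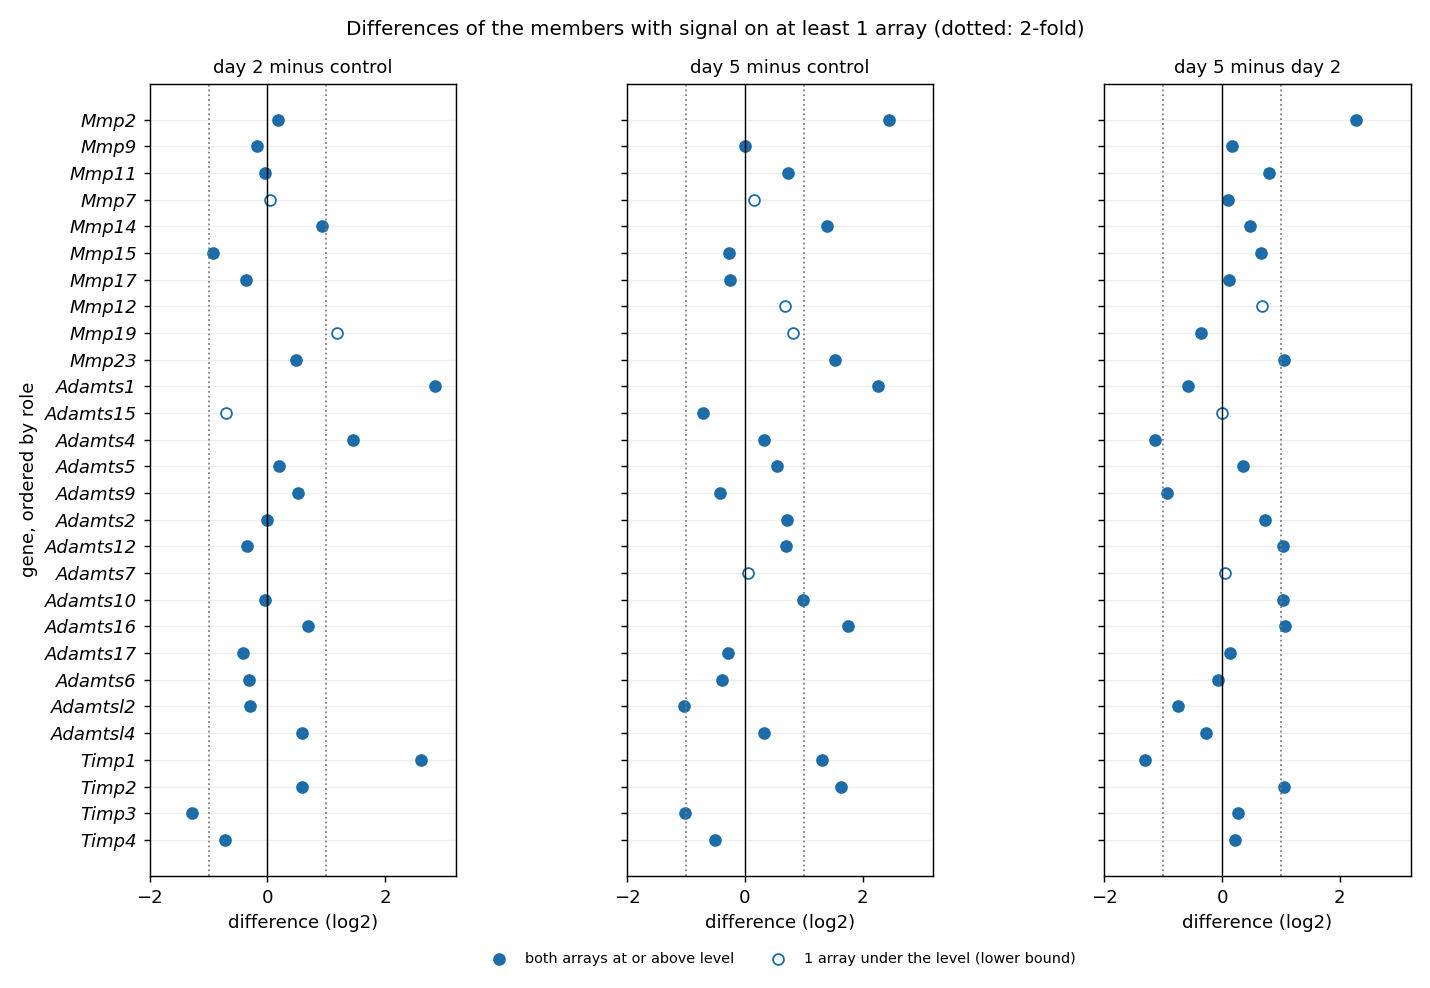
Log2 differences of the 28 members with at least 1 array at or above the background level, in rows ordered by role, for day 2 minus control, day 5 minus control and day 5 minus day 2. Filled points have both arrays at or above the level, open points are lower bounds with 1 array under it, and dotted lines mark 2-fold. Adamts1 and Timp1 lie farthest right on day 2, and Mmp2 and Adamts1 on day 5.

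Between the treated arrays, without the control, 6 of the 48 members were at least 2-fold higher on day 5 than on day 2 (12.5%), where 1.45% of all genes were. These were Mmp2, Mmp23, Timp2, Adamts10, Adamts12 and Adamts16. The lower members were 2 (4.17%), Timp1 and Adamts4, where 2.19% of all genes were lower. The comparisons share arrays, so each set of values stands on its own and no agreement between them is read. Of the 6 higher members, Adamts10, Adamts12, Timp2, Mmp23 and Adamts16 lay between 1.04 and 1.07, close to the 2-fold line, and Mmp2 at 2.27. Adamts9 was just under 2-fold on the lower side (-0.93) and Mmp11 on the higher side (0.79).

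**Figure D3:**
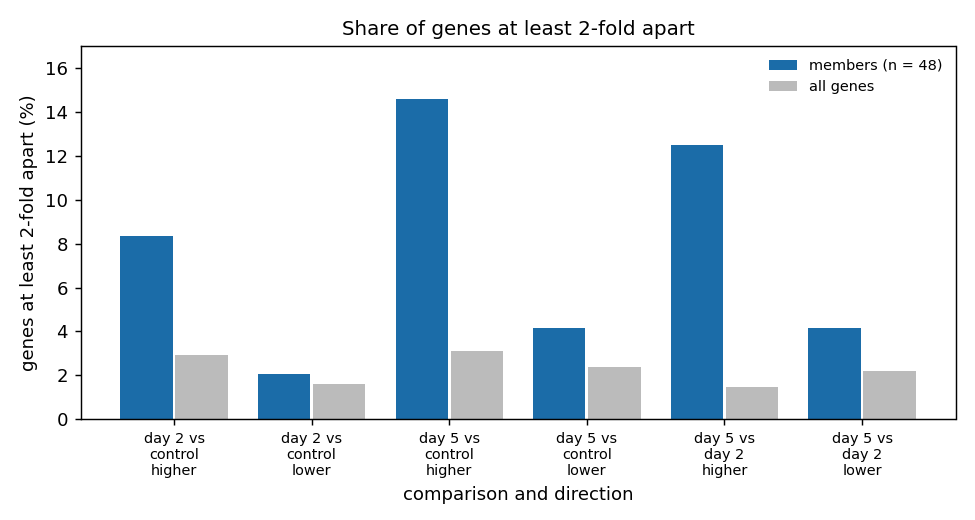
Share of genes at least 2-fold apart (percent) among the 48 members (blue) and among all 20667 genes (grey), for each comparison and direction. No error bars are drawn because each group was 1 array. The member bars for higher genes reach 8.33%, 14.6% and 12.5%, against 2.92%, 3.11% and 1.45% of all genes.

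Over the 25 members whose mean of the 3 arrays reached the background level, the median difference from control was -0.01 on day 2 and 0.55 on day 5. The same medians over the 12707 genes with such a mean were 0.08 and 0.02. Between day 5 and day 2 the medians were 0.22 for the members and -0.05 for these genes. The members' middle range on day 5 against control ran from -0.29 to 1.31.

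Of the members with signal, 15 were not 2-fold apart in any comparison. Adamts5, a main aggrecan-cutting enzyme of cartilage, gave 8.52, 8.72 and 9.07 log2 in the control, on day 2 and on day 5, within 0.55 of each other. Adamts9, a versican-cutting enzyme that is known for a role in cilia, gave 8.39, 8.90 and 7.97. Mmp15, a membrane-anchored protease, gave 8.54, 7.62 and 8.28, so the day 2 array was low and just under 2-fold from the control (-0.92). Mmp11 (stromelysin 3), a protease of stromal fibroblasts, gave 7.88, 7.83 and 8.62, with day 5 the highest array. The procollagen-trimming enzyme gene Adamts2 gave 6.23, 6.22 and 6.95, with the same order. Mmp12, the macrophage elastase, was under the level in the control (4.47) and on day 2 (4.97) and reached 6.02 on day 5. It was at least 1.60-fold higher there. Mmp7 (matrilysin), an epithelial protease described in other kidney injury models, gave 5.13, 5.39 and 5.49, all beside the level. Adamts15, a versican-cutting enzyme, was highest in the control, at 6.05, with 5.07 on day 2, under the level, and 5.34 on day 5, at the level.

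Of the 20 members under the background level on every array, 8 were neighbouring Mmp genes. In the RefSeq gene table (GRCr8), 10 Mmp genes follow each other on chromosome 8 with no other protein-coding gene between them, in the order Mmp13, Mmp12, Mmp1b, Mmp3, Mmp1, Mmp10, Mmp8, Mmp27, Mmp20 and Mmp7. This grouping was made after the values were seen. In these 8 the values ran from 2.69 to 5.28 log2, and 0 of the 10 reached the level on all arrays. The 8 include the collagenase genes Mmp1, Mmp1b, Mmp8 and Mmp13 and the stromelysin genes Mmp3 and Mmp10. Mmp12 and Mmp7 reached the level on some arrays. Among the 12 other Mmp genes, 4 were under the level throughout and 7 were at or above it on all arrays. The 4 were Mmp16, Mmp21, Mmp24 and Mmp28. A value under the level does not show that a transcript was absent.

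**Figure D4:**
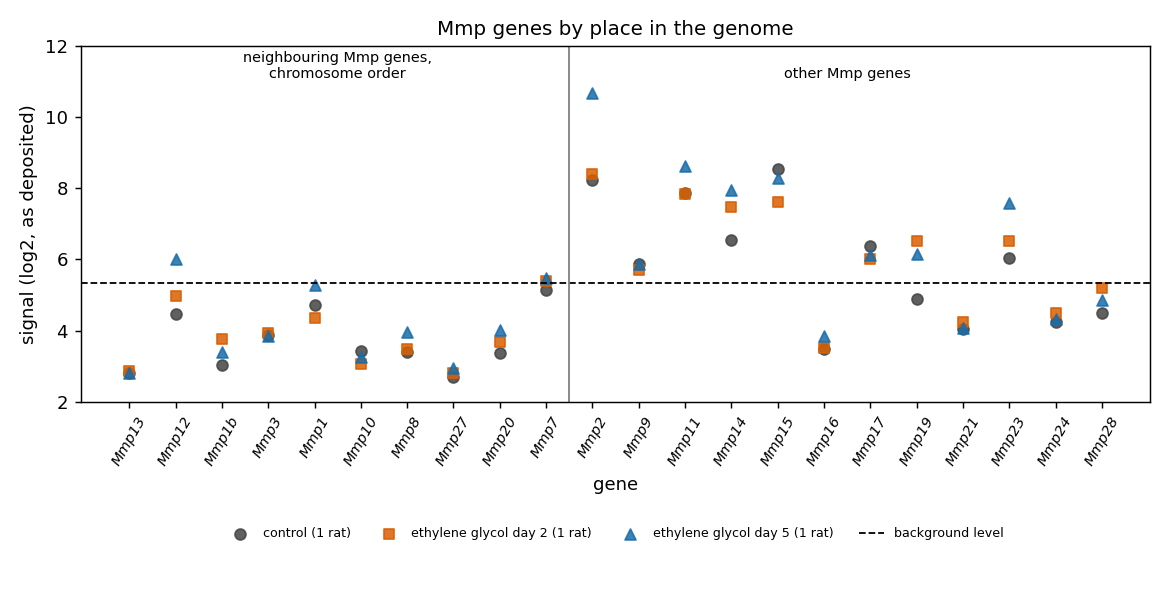
Signal (log2, as deposited) of the 22 Mmp genes on the 3 arrays, 1 point per array, with the 10 neighbouring genes of chromosome 8 at the left in chromosome order and the other 12 at the right. The dashed line is the background level of 5.34. Among the neighbouring genes only points of Mmp12 and Mmp7 lie above the line, while Mmp2 on day 5 (10.67) is the highest point at the right.

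The neighbouring Mmp genes, grouped after their values were seen, also share promoter letters, and 7 of the 10 had both an AP-1 motif and a TATA box in the 300-base window. Because the group was chosen, its share and that of all symbols stand side by side as a description only. The AP-1 motif, present in 7 of the 37 members with a window (18.9%), was found in 0 of the 27 other members with a window and in 8.04% of 27457 gene symbols, and both motifs together were found in 1.56% of symbols. Only 6 of the 12 other Mmp genes had a window, and Mmp2, Mmp9, Mmp14, Mmp16, Mmp17 and Mmp19 had none. The search took exact letters, so a near match such as tgagtaa in the printed Timp1 stretch was not counted. AP-1 is the transcription factor formed by Fos and Jun proteins, and its site in collagenase and stromelysin promoters is a textbook example of an inducible element. The 100 bases before the start are printed for the 7 genes with both motifs, 5′ to 3′ on the gene's strand, with AP-1 and TATA matches in capitals.
Mmp13 (GRCr8 chr8:12782729-12782828, plus strand): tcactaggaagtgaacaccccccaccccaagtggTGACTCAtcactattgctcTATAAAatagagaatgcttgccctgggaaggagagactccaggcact
Mmp12 (GRCr8 chr8:12866552-12866651, plus strand): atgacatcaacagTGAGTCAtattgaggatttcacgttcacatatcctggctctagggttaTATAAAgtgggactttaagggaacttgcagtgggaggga
Mmp3 (GRCr8 chr8:12925181-12925280, plus strand): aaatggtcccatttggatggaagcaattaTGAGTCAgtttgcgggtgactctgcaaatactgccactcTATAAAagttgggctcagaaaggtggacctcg
Mmp1 (GRCr8 chr8:12943353-12943452, plus strand): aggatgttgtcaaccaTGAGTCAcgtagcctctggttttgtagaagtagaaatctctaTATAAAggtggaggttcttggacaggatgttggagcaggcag
Mmp10 (GRCr8 chr8:12974607-12974706, plus strand): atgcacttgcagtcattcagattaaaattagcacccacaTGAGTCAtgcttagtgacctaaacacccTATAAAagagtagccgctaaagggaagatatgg
Mmp20 (GRCr8 chr8:13074179-13074278, plus strand): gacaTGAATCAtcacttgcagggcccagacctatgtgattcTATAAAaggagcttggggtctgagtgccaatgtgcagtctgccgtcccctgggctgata
Mmp7 (GRCr8 chr8:13132943-13133042, plus strand): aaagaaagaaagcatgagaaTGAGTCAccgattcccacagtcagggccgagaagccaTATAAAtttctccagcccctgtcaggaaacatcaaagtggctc
In these stretches the AP-1 match began 61 (Mmp10) to 96 (Mmp20) bases before the start and the TATA box 32 (Mmp3) to 59 (Mmp20) bases before it, always with AP-1 farther out. On the same arrays Jun stood at 11.59, 10.85 and 9.99 log2 in the control, on day 2 and on day 5, and was lower by 0.74 and 1.60. Fos stood at 6.68, 5.46 and 5.44, lower by 1.22 and 1.24, with both treated values just over the background level of 5.34. Of the 14 AP-1, ETS and Runx genes listed, 1 was at least 2-fold higher and 1 lower on day 2, where 2.92% and 1.61% of all genes were, and 1 was higher and 3 were lower on day 5, where 3.11% and 2.38% were. The higher gene was Runx2 (1.15 and 1.09, lower bounds), and Junb was the remaining lower gene on day 5 (-1.27). Other Fos and Jun genes were not 2-fold apart from control: Jund (0.15 and 0.01), Fosb (-0.15 and -0.37) and Fosl2 (0.55 and -0.35). Fosl1 was under the level on all arrays. The neighbouring Mmp genes were under the level in the control too, and the part of the listed AP-1, ETS and Runx genes in the Mmp signals was not tested.

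Genes that activate, restrain or clear these enzymes were taken from a list of 38, of which 37 matched and 33 had signal. On day 2, 4 were at least 2-fold higher and 2 lower, and on day 5 the numbers were 6 and 1. Over all genes, against which this and the other lists are to be read, 2.92% were higher and 1.61% lower on day 2, and 3.11% and 2.38% on day 5. The median difference of the list was 0.01 on day 2 and 0.00 on day 5. This and the other list medians take in all matched genes, with a gene under the level on both arrays entered as no difference. They are therefore not on the basis of the members' medians, which used genes whose mean reached the level. A2m, a plasma protease inhibitor that traps Mmp and Adamts enzymes, had 4.63 log2 in the control, under the level, 6.12 on day 2 and 7.75 on day 5, at least 5.3-fold higher on day 5. Lrp1, the receptor that clears Timp3, Mmp2 and Adamts enzymes, gave 7.70, 8.74 and 9.67, higher on both treated arrays (1.04 and 1.97). Lcn2, whose human counterpart can bind MMP9, was higher by 6.89 and 6.35, while Mmp9 itself differed by -0.17 and 0.00.

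Other listed proteases and cofactors went both ways. Mep1b, a meprin protease of the proximal tubule brush border, gave 11.56, 9.95 and 10.38 log2 and was lower at both times (-1.61 and -1.18). Thsd4, an Adamts-like protein of microfibrils, gave 9.19, 7.72 and 9.13, low on day 2 (-1.47). Serpinh1, a collagen chaperone, was higher by 1.62 and 1.59, and Tll1, a procollagen C-proteinase, by 1.30 on day 2. Pcolce, an enhancer of procollagen C-proteinases, was higher by 1.17 on day 5, and Serpine2, an inhibitor of thrombin and plasminogen activators, by 1.36. The plasminogen activator genes Plau (0.33 and 0.58) and Plat (0.20 and 0.39), the precursor-activating protease gene Furin (0.32 and -0.30) and the membrane-anchored Mmp inhibitor gene Reck (-0.22 and 0.07) were not 2-fold apart from control.

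**Figure D5:**
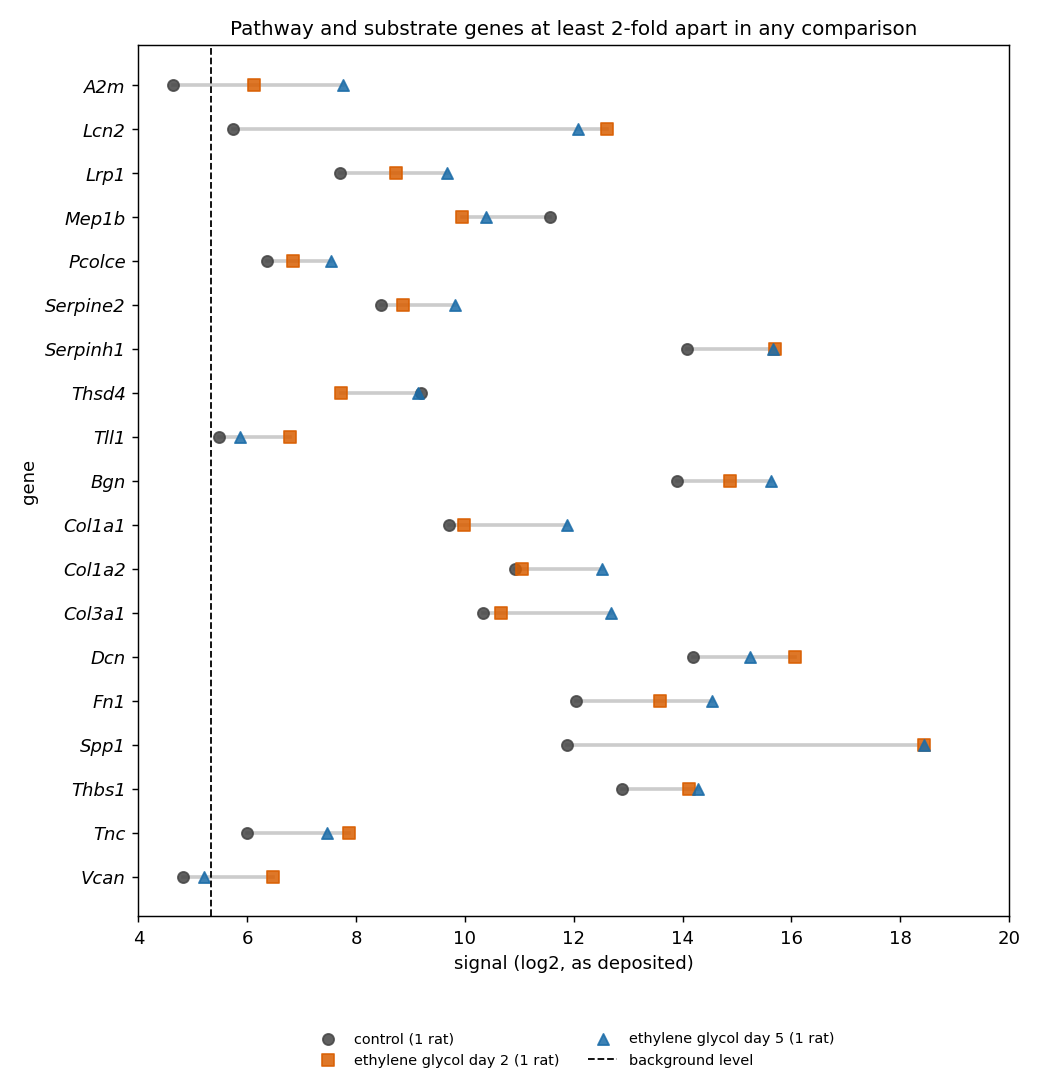
Signal (log2, as deposited) of genes from the pathway list (A2m to Tll1) and the substrate list (Bgn to Vcan) at least 2-fold apart in any comparison, 1 point per array, with the background level dashed. A2m, Lrp1, Col1a1, Col1a2, Col3a1 and Fn1 were highest on day 5, and Tll1, Dcn, Tnc and Vcan on day 2.

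Matrix genes whose products these enzymes cut were read from a list of 19, with 15 carrying signal. On day 2, 6 were at least 2-fold higher and 0 lower, and on day 5, 9 and 0, against the shares of all genes given above. The median difference was 0.29 on day 2 and 0.85 on day 5. Vcan, the versican substrate of Adamts1 and Adamts4, gave 4.81 log2 in the control, 6.48 on day 2 and 5.21 on day 5, so only day 2 exceeded the level (a difference of at least 1.14). Col1a1, Col1a2 and Col3a1, the fibrillar collagens whose denatured form Mmp2 cuts, were within 0.33 of the control on day 2 and higher by 2.17, 1.60 and 2.36 on day 5. Fn1 (fibronectin) was higher by 1.54 and 2.51 at the earlier and later time. Spp1 differed most (6.56 and 6.56), with both treated arrays at 18.43, above 16 log2. Tnc (1.87 and 1.46), Dcn (1.86 and 1.04) and Thbs1 (1.24 and 1.40) were higher at both times. Bgn (0.98 and 1.74) was past 2-fold on day 5 only. Acan, the aggrecan gene, reached the level in the control alone (5.66), and Comp and Vwf did not reach it on any array.

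Markers of kidney, blood and connective tissue cells also differed between the arrays, and their counts are to be read against the same shares of all genes. Of 10 fibroblast markers, 2 were at least 2-fold higher on day 2 and 7 on day 5, with 0 lower at either time. Between the treated arrays, where 1.45% of all genes were at least 2-fold higher on day 5, 6 of these markers were. Their summed signal was 15.46, 16.56 and 16.63 log2 in the control, on day 2 and on day 5, and Lum and Postn were under the background level on all arrays. Dcn (14.20, 16.06 and 15.24) and Dpt (14.14, 13.79 and 15.04) were the brightest of the list and carry most of this sum. On day 2 Mfap4 differed from control by -0.63, and the median over the list was 0.20, against 1.54 on day 5. This list shares Col1a1, Col1a2 and Col3a1 with the substrates. Of 12 macrophage and monocyte markers, 6 were higher on day 2 and 7 on day 5, with 0 lower, and Itgam was under the level throughout. The summed signal of 15.30, 16.94 and 17.21 log2 was nearly all Lyz2 (15.24, 16.91 and 17.18), which exceeds 16 log2 on the treated arrays. The median over the list was 1.05 on day 2 and 1.42 on day 5, and on day 2 C1qa (-0.05) and Adgre1 (-0.26) were not higher. Of 10 neutrophil markers 0 were 2-fold apart, 8, among them Mpo, Elane and S100a8, were under the level on every array, and the summed signal was 8.26, 8.14 and 7.90 log2. Mmp8, the neutrophil collagenase, was under the level as well (3.40, 3.47 and 3.95). Proximal tubule markers were lower, 6 of 10 on day 2 and 7 of 10 on day 5, with a summed signal of 20.63, 19.63 and 19.60 log2. The brightest of them, Lrp2 (19.19, 18.18 and 18.57) and Slc34a1 (18.70, 17.54 and 17.65), exceed 16 log2 on every array.

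Of 5 fat cell markers, 0 were 2-fold apart from control on day 2 and 2 were higher on day 5, Adipoq by 1.05 and Fabp4 by 1.11, while Plin1, Cfd and Lep were under the level on all arrays. The summed signal was 9.39, 9.49 and 10.36 log2. Between the treated arrays, Adipoq was 0.67 and Fabp4 1.59 higher on day 5. Of 6 smooth muscle and pericyte markers, 2 were higher at each time, Tagln by 1.91 and 2.28 and Des by at least 1.47 and 2.04. Myh11 differed by -0.93 and -0.38, Cnn1 was under the level throughout, and the summed signal was 11.33 log2 in the control, 11.75 on day 2 and 12 on day 5. Of 5 red blood cell markers matched, 3 were lower at each time, Hbb by -1.81 and -3.24, with a summed signal of 16.74, 15.26 and 14.05 log2. All 5 tubular injury markers matched were higher at each time, among them Havcr1 (5.92, 18.39 and 14.36), with a summed signal of 11.37, 18.97 and 17.60 log2. Havcr1 on day 2 and Clu on both treated arrays (17.20 and 17.29) exceed 16 log2, where the scale may be distorted. None of the 7 endothelial or 5 mast cell markers was 2-fold apart from control, with summed signals of 13.87, 13.54 and 13.78 log2 and of 8.55, 9.10 and 8.89. The part of these cell types in the values of the members was not tested.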

How the data were processed

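Kidney RNA of 3 male rats was measured on 3 arrays, 1 per group. The authors summarised the probes with Transcriptome Analysis Console into 1 log2 signal per transcript cluster on the rn6 annotation, with no filter, per the file headers. How background was corrected and arrays were normalized is not given in the sources used here. Both deposited tables held the same log2 values (69564 of 69564). Of 23188 clusters, 21502 named 1 gene and were used, and the brightest cluster by mean stood for a symbol. Differences were taken after the floor at the background level. No test was run, since each group was 1 array, and the number of arrays limits the precision. The code for the 2-fold counting was run on simulated arrays with differences larger than 2-fold in genes well above the background level. That run does not bear on differences near 2-fold, signals near the level or the spread between rats.

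Python 3.11.15 with pandas 2.3.3, and limma 3.58.1 for cyclic loess, were used. The alternatives were 3 other background levels, 3 scalings, the mean of a gene's clusters, clusters naming several genes and a 4-fold threshold. Members at least 2-fold apart and all Timp genes were to be given in full, other members by values or counts. Of the pathway list, members past 2-fold were to be named, at most 6 per comparison, and 1 gene of that list is not reported here and was left out of its counts. Plau, Plat, Furin, Reck, the AP-1 genes and the substrate genes were named outside this rule, after their values were seen. The members and lists were chosen with earlier results of these data known. Promoter windows are RefSeq's (GRCr8), not the build of the files, and serve for sequence and gene order only.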

Additional observations from a re-analysis of the deposited data

Results flagged for a closer look

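Mmp11 has a second cluster, not placed on a chromosome and dimmer than the one used. It gave 7.04 log2 in the control, 7.38 on day 2 and 8.23 on day 5, which is 1.19 above the control on day 5 and past 2-fold. The cluster used differed by 0.74 there. It came up because a signal outside the values used exceeded the control array, and both clusters had day 5 as the highest array.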

How the results depend on the processing

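Each group was 1 array, so no array could be left out, and scaling and background choices are the only checks. No paired analysis was possible because each group held 1 rat. With 4-fold in place of 2-fold the members apart from control were 2 on day 2 (of 5) and 2 on day 5 (of 9), and 1 (of 8) between the treated arrays. All of these were higher, where 0.237%, 0.213% and 0.0629% of all genes were at least 4-fold higher. Under the other alternatives the 2-fold counts of members stayed within 1.5 times. Quantile normalization and cyclic loess each gave 4 higher and 2 lower members on day 2, where 4 and 1 are reported. The shares of all genes there were 2.25% higher and 1.93% lower with quantile normalization, and 2.39% and 1.85% with cyclic loess. The members' median on day 5 against control (0.55) was 0.34 with the background at the olfactory receptor median, 0.34 with no background, 0.36 with cyclic loess, 0.44 with the mean of clusters and 0.44 with several-gene clusters. At day 2 (-0.01) it was 0.11 with the olfactory receptor median and 0.10 with the mean of clusters. Between the treated arrays (0.22) it was 0.41 with the median of all values as the background. A changed background level also changes which members enter the median. Of 22 single 2-fold differences, 19 stayed at or past 2-fold in all 8 alternatives that kept the 2-fold line. The 3 that did not are Timp1 and Timp3 on day 5 and Mmp19 on day 2, each against control. Adamts10 and Adamts12 between the treated arrays were at the line (1.00) with each array centred on its median. For a gene with 1 cluster and signals well over the level, the background and cluster alternatives cannot change the value. Only the 3 scalings check such a gene. With the median of all values as the background, Timp1 on day 2 was 1.88 (2.61 reported). The cause of the scaling differences was not tested.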

Other observations

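Clusters naming a member together with another gene were not counted among the members. The cluster of Adamts13, the protease that cuts von Willebrand factor, and Cacfd1 gave 4.93 log2 in the control, 4.61 on day 2 and 4.22 on day 5, all under the background level. The cluster of Adamtsl1 gave 6.43, 6.70 and 6.18 log2, with no array 2-fold from another. A several-gene cluster of Mmp28 gave 4.70, 4.75 and 4.75 log2, under the level like the cluster used. Without a background level, Mmp12 was 1.55 log2 higher on day 5 than in the control and 1.05 higher than on day 2. Its control and day 2 arrays were under the level. Mmp19 was then 1.28 higher on day 5 than in the control, where its array was under the level. Adamts3, a procollagen-trimming enzyme gene, and Adamtsl3 were also past 2-fold in 1 comparison each, but all of their arrays were under the level and no difference is read from them.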
